A study of Mus musculus with 8 samples.

Results

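Integrins and laminins are described here as the 42 genes, of 22200 in the deposited table, whose symbols begin with Itga, Itgb, Lama, Lamb or Lamc followed by a subunit number (or, for alpha chains, a subunit letter). The symbols gave 18 integrin alpha subunits, 9 integrin beta subunits, 5 laminin alpha, 3 laminin beta and 3 laminin gamma chains. They also took in 4 genes that are not subunits: Itgb1bp1, Itgb1bp2, Itgb1bp3 and Itgb3bp, named for proteins that bind the tails of integrin beta chains. The membership used only the symbol, not any measured value.

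Integrins are receptors at the cell surface made of an alpha and a beta subunit, and the combination sets what they bind: laminins, collagens, proteins with an RGD sequence such as fibronectin and vitronectin, or proteins on other cells. Laminins are secreted cross-shaped trimers of an alpha, a beta and a gamma chain that polymerise into the basement membrane, where nidogens and perlecan tie them to type IV collagen. Fibroblasts use integrins to grip and assemble the matrix, while beta2, beta7 and alphaIIb integrins are best known from blood cells.

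RNA was profiled in immortalized mouse embryonic fibroblasts (MEFs) on the C57BL/6 background, of genotype TAF4-/- by their labels (TAF4 belongs to TFIID, which recognises core promoters). The study asked which genes retinoic acid (RA), the ligand of the RAR receptors, changed early and late in these cells. Of the 8 libraries, 3 came from untreated cells labelled 12 h, 3 from cells after 12 h in RA and 2 from cells after 72 h in RA. By their labels, all groups shared the genotype and the background, and no library labelled as TAF4-expressing was analysed here. No untreated library was labelled 72 h, and what RA did by 72 h cannot be told apart from what the longer culture did. The titles carry cl1, whereas the study calls its TAF4-null line C3 and its TAF4-expressing line C1. The study's methods name C3 cells for the RNA-seq with RA. The genotype thus rests on the label and the study's text, and no value here checks it. The study's methods also give an earlier second time than the 72 h of the labels, whereas its results text gives 12 h and 72 h as the labels do. The series text counts 7 samples where its list holds 8. Nothing in the labels says that replicates were separate cultures, so the p-values measure the spread between these libraries, which may be technical.

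Values are the authors' normalised reads per gene, whose distribution was identical in all libraries (a floor of 1, a total of 9442019 and a median of 20.75 per library), so depth was unknown and no counting interval could be given. Known RA targets responded: Rarb, an RA receptor, and Dhrs3, a retinal reductase, rose by 1.76 and 3.46 on the log2 scale at 12 h and by 2.31 and 4.60 at 72 h, and Cyp26b1, which degrades RA, went from a mean of 59.0 in untreated cells to 3746 at 12 h and 5391 at 72 h. Taf4a, the gene named as deleted in the labels, read 984 to 1449 in the 8 libraries, and since a value per gene does not show which exons the reads came from, it does not check the label. The label fibroblast was checked against 10 markers: 7 had a mean of at least 10, led by Vim and Col1a1, while Dcn, Lum and Thy1 lay near the floor with means of 5.70, 1.48 and 1.86. Within groups, libraries differed along a shared axis that took 50.1% of the within-group variance, with untreated 1 and 2, RA 12 h 3 and RA 72 h 2 on one side (side 1) and the other 4 libraries opposite (side 2). Side 2 has untreated 3 as its only untreated library, and each side has a single 72 h library. Changes within a side therefore rest on single libraries in at least 1 of the groups compared and carry no error.

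The integrins and laminins ran from means near the floor of 1 to 6497 normalised reads. The highest were Itgb5 (mean over the 8 libraries 6497 normalised reads), Lamb2 (3917), Itgb1 (3811), Lama5 (3065), Lamb1-1 (2124) and Itga5 (1881). Another 26 members had a mean of 10 or more and could be tested, which made 32. The remaining 10 did not reach it: the collagen receptor subunits Itga2 and Itga10, the leukocyte subunits Itgal, Itgam and Itgax, the beta subunits Itgb3 and Itgb2l, the laminin chain Lamb3, and Itgb1bp2 and Itgb1bp3. Their means ran from 1.42 for Itgb1bp3 to 9.83 for Itga10.

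**Figure D1:**
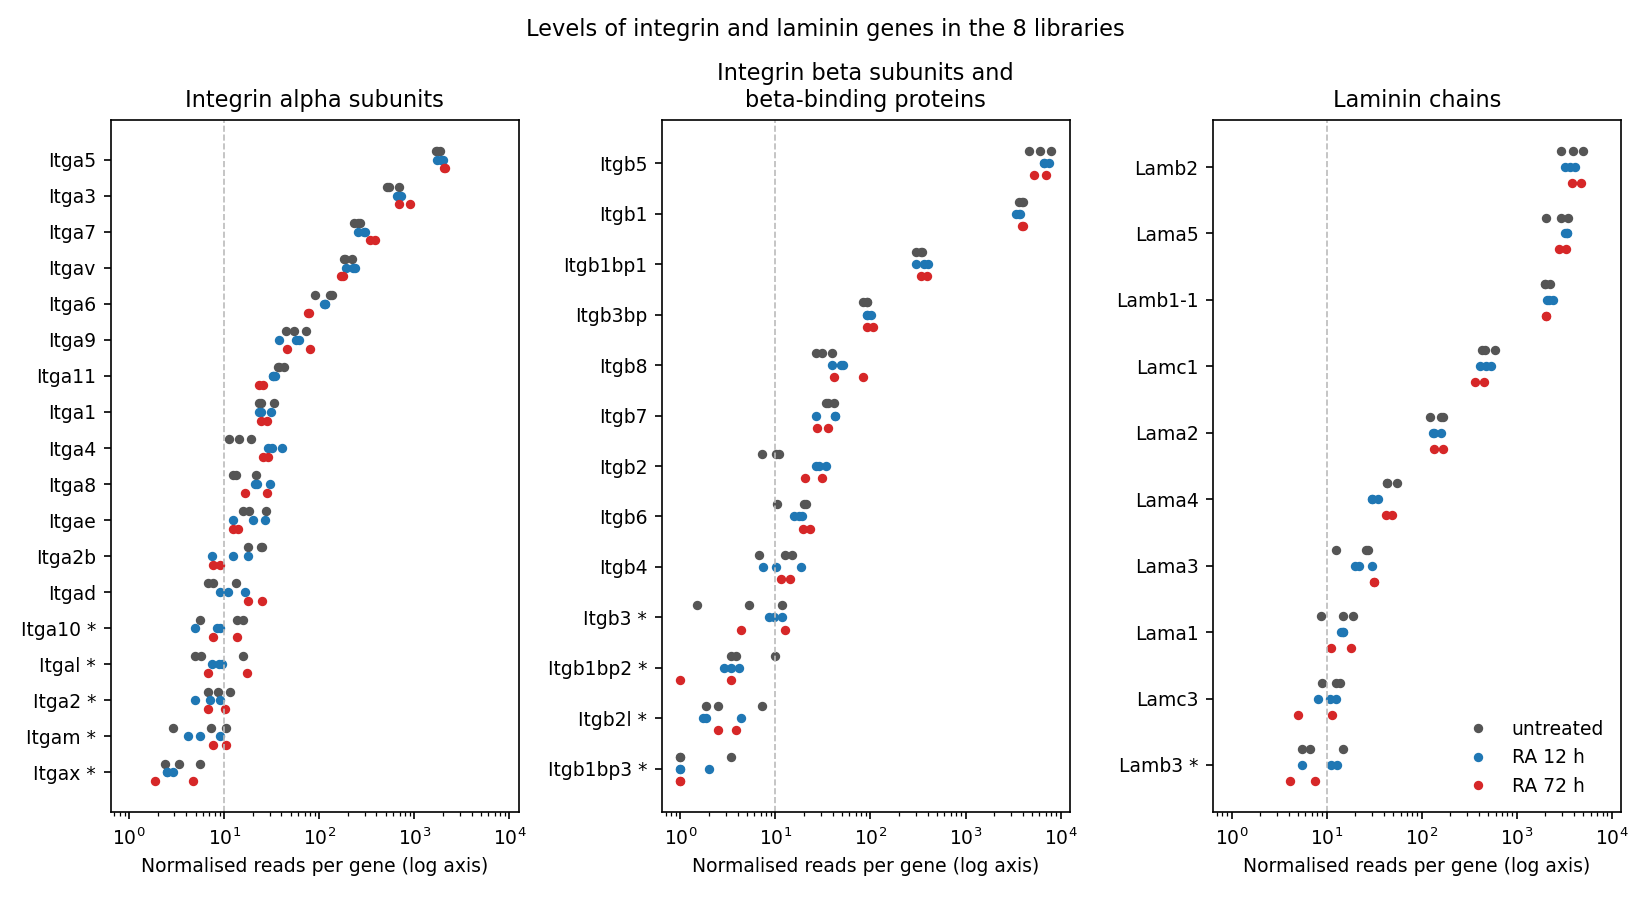
Normalised reads per gene (log axis) of 41 members in each of the 8 libraries, coloured by group. Each point is a library, the dashed line marks the mean of 10 needed for testing, and an asterisk marks the 10 genes that did not reach it. Itgb5, Lamb2, Itgb1, Lama5, Lamb1-1 and Itga5 are the 6 highest by mean.

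Levels of different genes were compared per kb of exons. This scale, like the gene-body background given further on, assumes reads from fragmented RNA, as in the study's methods; for tags cut at fixed sites, as in the labels, reads would not scale with length. On this scale a single chain led the integrin alpha, integrin beta, laminin alpha and laminin beta families in every group, and RA did not change which. Of the integrin beta total in untreated cells, Itgb5 (beta5, the vitronectin receptor partner of alphaV) took 64.8% ± 7.15 (SD, n = 3) and Itgb1 (beta1, the partner of most alpha subunits) 34.3% ± 7.04. Of the integrin alpha total, Itga5 (alpha5, the fibronectin receptor with beta1) took 63.3% ± 2.37, Itga3 16.1% ± 2.30 and Itga7 9.30% ± 0.824.

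Among laminins, Lama5 took 91.3% ± 1.07 of the alpha total and Lamb2 76.3% ± 4.73 of the beta total in untreated cells (SD, n = 3). Lamb1-1 (laminin beta1) gave nearly all of the remaining beta signal, with 23.5% ± 4.57. After 72 h of RA the shares of Lama5 and Lamb2 were 91.8% and 78.4% (n = 2), and Itga5 held 62.3% of the integrin alpha total.

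**Figure D2:**
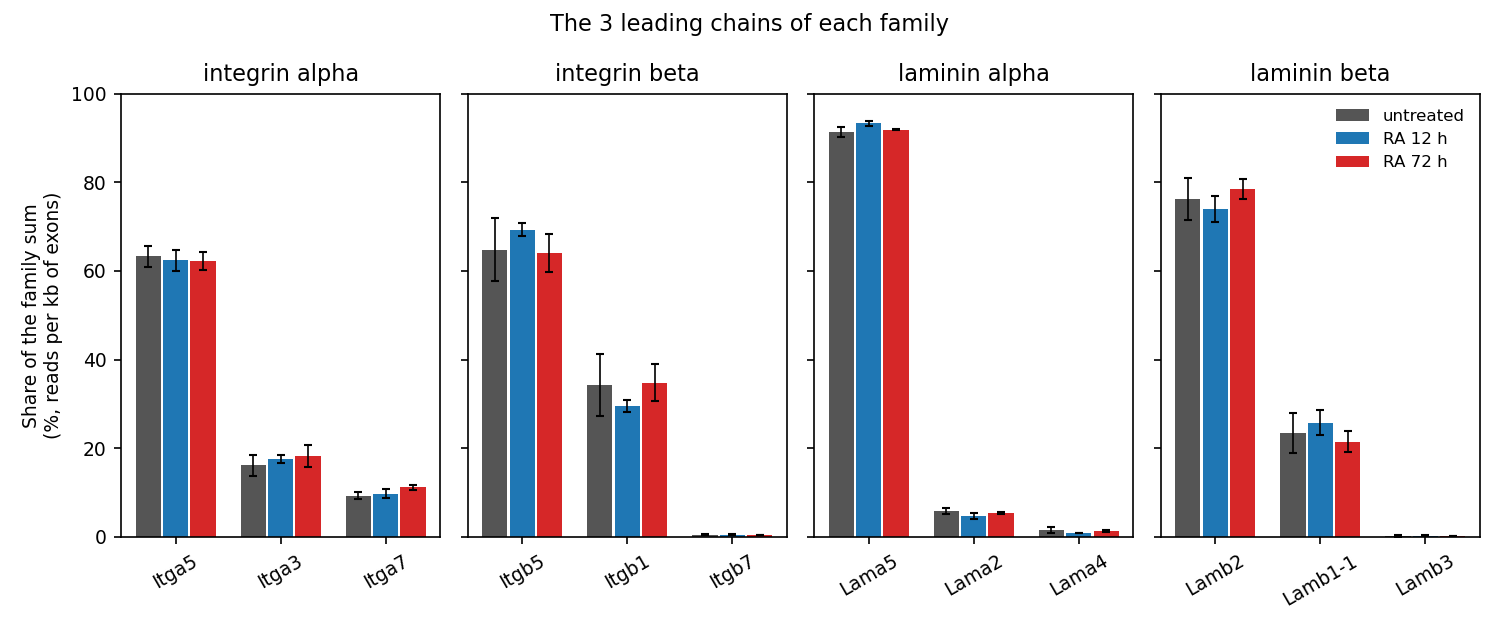
Share of the family total (percent, from normalised reads per kb of exons) taken by the 3 leading chains of the integrin alpha, integrin beta, laminin alpha and laminin beta families in untreated (n = 3), RA 12 h (n = 3) and RA 72 h (n = 2) libraries. Bars are means and error bars the SD. Itga5, Itgb5, Lama5 and Lamb2 lead in all 3 groups.

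The first comparison, 12 h of RA against untreated cells, asked which integrins and laminins responded early. Itgb2 and Itga4 rose, and no member was called lower. A member was called when its adjusted p (limma, Benjamini-Hochberg over the 12673 genes tested) was below 0.05 and its change at least 2-fold. Of the 32 tested members 2 were called, both higher, against 1.42% of all tested genes (180 of 12673; 1.11% higher and 0.308% lower). The same 2 passed without the fold minimum, against 4.37% of all genes. The log2 change was under 0.5 in either direction for 26 of 32, and the 95% interval lay inside a 2-fold change for 26. The median change of the members was 0.09 on the log2 scale and that of all genes -0.02.

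Itgb2 encodes beta2, the shared beta subunit of the leukocyte integrins (ENSMUSG00000000290, mm9 chr10:76992997-77028453, plus strand). It read 11, 7.25 and 10.25 in the untreated libraries and 28.75, 26.875 and 33.75 at 12 h of RA. The change was 1.56 ± 0.28 on the log2(value + 1) scale (SE, adjusted p = 0.0047 by limma), or 2.96-fold. All 3 RA libraries stood above all 3 untreated ones, and the change was 1.80 within side 1 and 1.36 within side 2. The call held in 17 of 18 alternative settings, with adjusted p from 0.00037 to 0.0284, and was lost with a 3-fold minimum. Reads spread along the whole gene at the rate seen in long genes would account for 43.4% of its untreated value (the rate is the 25th percentile of normalised reads per Mb among genes spanning over 100 kb, taken in each library).

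The partners of beta2 were scarce. Itgal, Itgam and Itgax, which encode alphaL, alphaM and alphaX, had means of 9.52, 7.19 and 3.23 and were not tested. Itgad, for alphaD, read 7.625, 6.75 and 13.375 in untreated cells, 9.125, 16.75 and 11 at 12 h, and 17.625 and 25.125 at 72 h. Its 72 h libraries lay above the untreated ones, but its change of 1.16 ± 0.40 was not called (adjusted p = 0.0875); without untreated 3 it would have been (1.43, adjusted p = 0.0247, in a range of 0.0247 to 0.369 over its alternatives). Itgad, Itgam and Itgax are close relatives that lie side by side on chromosome 7, and reads shared between them could have been split. Of 10 leukocyte markers 9 were in the table: 2 of them (Emr1 and Cd14) had a mean of at least 10, 0 were called in any comparison, and their summed level was 76.75 to 114.1 in untreated, 73.6 to 84.1 in RA 12 h and 74.25 to 83.75 in RA 72 h libraries. No marker sat at the floor of 1 in every library, and the defining markers Ptprc, Coro1a and Lyz2 had means of 9.42, 3.94 and 1.69. The part of leukocyte RNA in the Itgb2 result was not tested. Of the endothelial (8 in the table) and epithelial (7 in the table) markers, 0 were called in any comparison. In bulk RNA, fewer cells of a type and less RNA per cell cannot be told apart.

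Itga4 encodes alpha4, which pairs with beta1 or beta7 and binds fibronectin and VCAM1 (ENSMUSG00000027009, mm9 chr2:79095583-79173280, plus strand). Its untreated values were 11.25, 14.375 and 19.25, and those at 12 h of RA 40.75, 28.75 and 31.875. The change was 1.14 ± 0.26 on the log2 scale (SE, adjusted p = 0.0256), or 2.20-fold, with 1.26 within side 1 and 0.80 within side 2. The groups did not overlap. Its beta partners were not called: Itgb1 changed by -0.10 ± 0.09 and Itgb7 by -0.03 ± 0.24.

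The Itga4 call depended on single libraries. Leaving out untreated 1 or 2, or any of the 3 RA 12 h libraries, took the adjusted p to 0.13, 0.0609, 0.162, 0.0681 and 0.061 in that order, while the log2 change lay between 0.96 and 1.33 over all 8 fits that left out a library. Over all 18 alternatives the adjusted p ran from 0.0028 to 0.162, and 8 kept the call. The lowest came from the fit with the shared axis as a term, an axis taken from the residuals of these same values. The kept calls include those without the fold minimum or without adjustment of p, looser rules that could not lose a call. The gene-body background would account for 60.4% of its untreated value, and subtracting it gave a larger change with a larger error, 1.85 ± 0.37 (SE, adjusted p = 0.0604), which was not called. Itga4 also shares 1124 exon bases with Cerkl on the opposite strand, whose change at 12 h was 0.33 ± 0.32, and reads of the pair cannot be separated unless strand was used in counting.

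**Figure D3:**
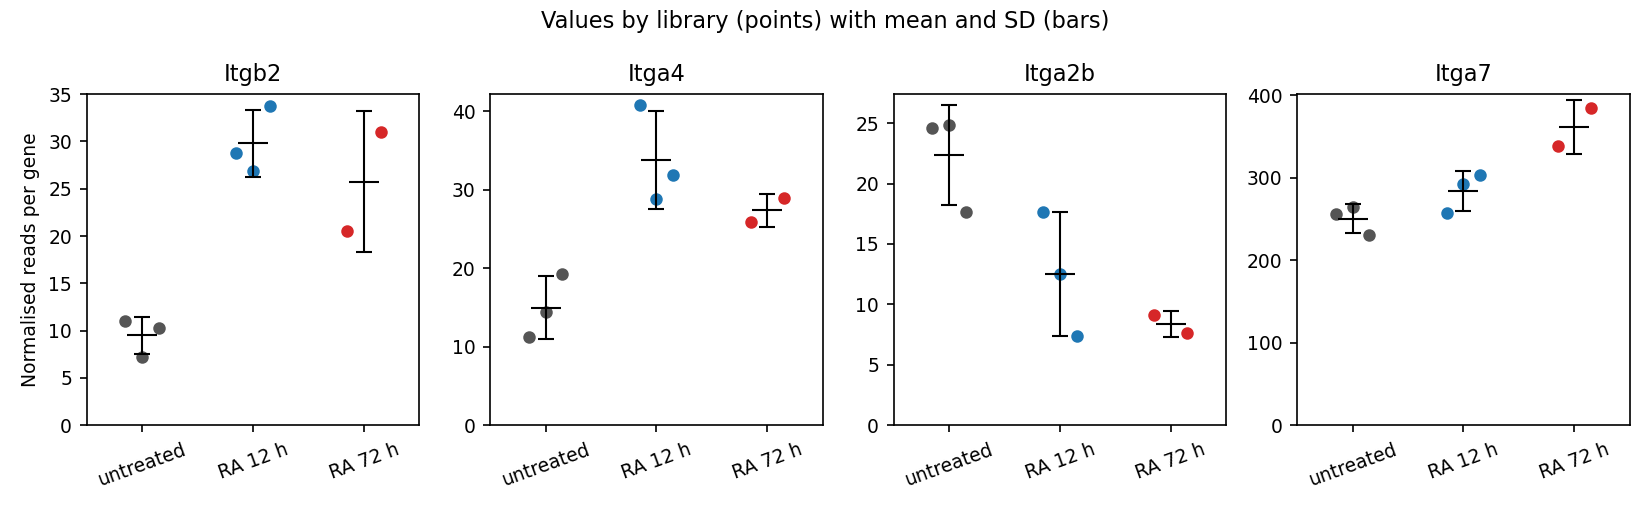
Normalised reads per gene in each library for the 3 called members, Itgb2, Itga4 and Itga2b, and for Itga7, which passed the adjusted p without reaching 2-fold. Points are libraries, and the bar and line give the mean and SD of each group. Itgb2 and Itga4 are higher in all RA libraries than in all untreated ones, Itga2b is lower at 72 h, and Itga7 is highest at 72 h.

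At 12 h, 4 members had RA values wholly above the untreated ones (Itga4, Itgb2, Itgb3bp and Itgb8, against 9.42% of all genes) and 2 wholly below (Itga11 and Lama4, against 10.6%), shares close to those of all genes. Unadjusted p was at most 0.05 for 4 of 32 members, against 16.3% of all genes: Itgb2, Itga4, Itga2b and Lama4.

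The second comparison set 72 h of RA against the same untreated libraries. Itgb2 was higher and Itga2b lower, so 2 of 32 were called, against 3.67% of all tested genes (465 of 12673; 2.15% higher and 1.52% lower). A further alpha subunit, Itga7, rose by less than 2-fold and passed the adjusted p, which made 3 members against 11.5% of all genes. No laminin chain was called. The 95% interval lay inside a 2-fold change for 19 of 32. The median change of the members was 0.08 and that of all genes -0.02 on the log2 scale.

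Itgb2 read 20.5 and 31 at 72 h, above all 3 untreated libraries. Its change was 1.34 ± 0.31 on the log2 scale (SE, adjusted p = 0.0131), or 2.53-fold, and within the sides it was 1.69 and 0.93. Without RA 72 h 2 the change was 1.05 and the adjusted p 0.158, which ended the call. The call was kept in 14 of 18 alternatives, with adjusted p from 0.0023 to 0.158.

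Itga2b encodes alphaIIb, the alpha subunit of the platelet fibrinogen receptor (ENSMUSG00000034664, mm9 chr11:102314611-102331436, minus strand). It read 24.625, 24.875 and 17.625 in untreated cells, 17.625, 12.5 and 7.375 at 12 h and 9.125 and 7.625 at 72 h. The change at 72 h was -1.31 ± 0.38 (SE, log2 scale, adjusted p = 0.0434), or 2.47-fold lower, and -1.58 and -0.88 within the sides. Every 72 h value lay under every untreated one. At 12 h the change was -0.85 ± 0.34 and was not called (adjusted p = 0.231), and RA 12 h 1 read the same as untreated 3.

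The Itga2b call also depended on single libraries. It was lost without untreated 1 or 2, RA 12 h 2, or either 72 h library, with adjusted p of 0.138, 0.103, 0.0715, 0.143 and 0.192. Over 18 alternatives the adjusted p ran from 0.0116 to 0.192, and 8 kept the call. Its beta partner Itgb3 had a mean of 8.17 and was not tested. Of 8 platelet and megakaryocyte markers 7 were in the table, and their sum (1199 to 1861 in untreated, 3035 to 4498 in RA 12 h and 1838 to 2607 in RA 72 h libraries) came mainly from Ppbp (mean 2112) and Gp1bb (376), while the defining markers Pf4, Gp1ba and Gp5 had means of 1.91, 2.17 and 2.52. At 12 h 1 marker of the list was called higher (Ppbp, a chemokine), and the only one called lower at 72 h was Itga2b itself. The part of platelet markers in the Itga2b result was not tested.

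Itga7 encodes alpha7, a laminin receptor subunit that pairs with beta1 and is best known from muscle (ENSMUSG00000025348, mm9 chr10:128370869-128395333, plus strand). Its values were 255.75, 265.125 and 230.5 in untreated cells, 256.75, 292.25 and 303.625 at 12 h and 338.25 and 384.375 at 72 h. The change at 72 h was 0.53 ± 0.13 on the log2 scale (SE, adjusted p = 0.0201), or 1.44-fold, and 0.56 and 0.55 within the sides. Both 72 h libraries stood above all the others. Without RA 72 h 2 the change was 0.43 and the adjusted p 0.178, without RA 72 h 1 the adjusted p was 0.0622 and without untreated 1 it was 0.0513, and over 19 alternatives the adjusted p lay between 0.00073 and 0.178. Itga7 shares 1 exon base with Mettl7b on the opposite strand, which rose at 72 h (1.22 ± 0.30, adjusted p = 0.0179).

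Itga4 read 25.875 and 28.875 at 72 h, again above all untreated values. Its change of 0.86 ± 0.30 was not called (adjusted p = 0.0872). Without untreated 3 it was 1.05 (adjusted p = 0.0272, in a range of 0.0252 to 0.291 over its alternatives), and that fit called 5 members at 72 h: Itga2b, Itga4, Itgad, Itgb2 and Itgb8. The comparisons at 12 h and 72 h share their untreated libraries.

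**Figure D4:**
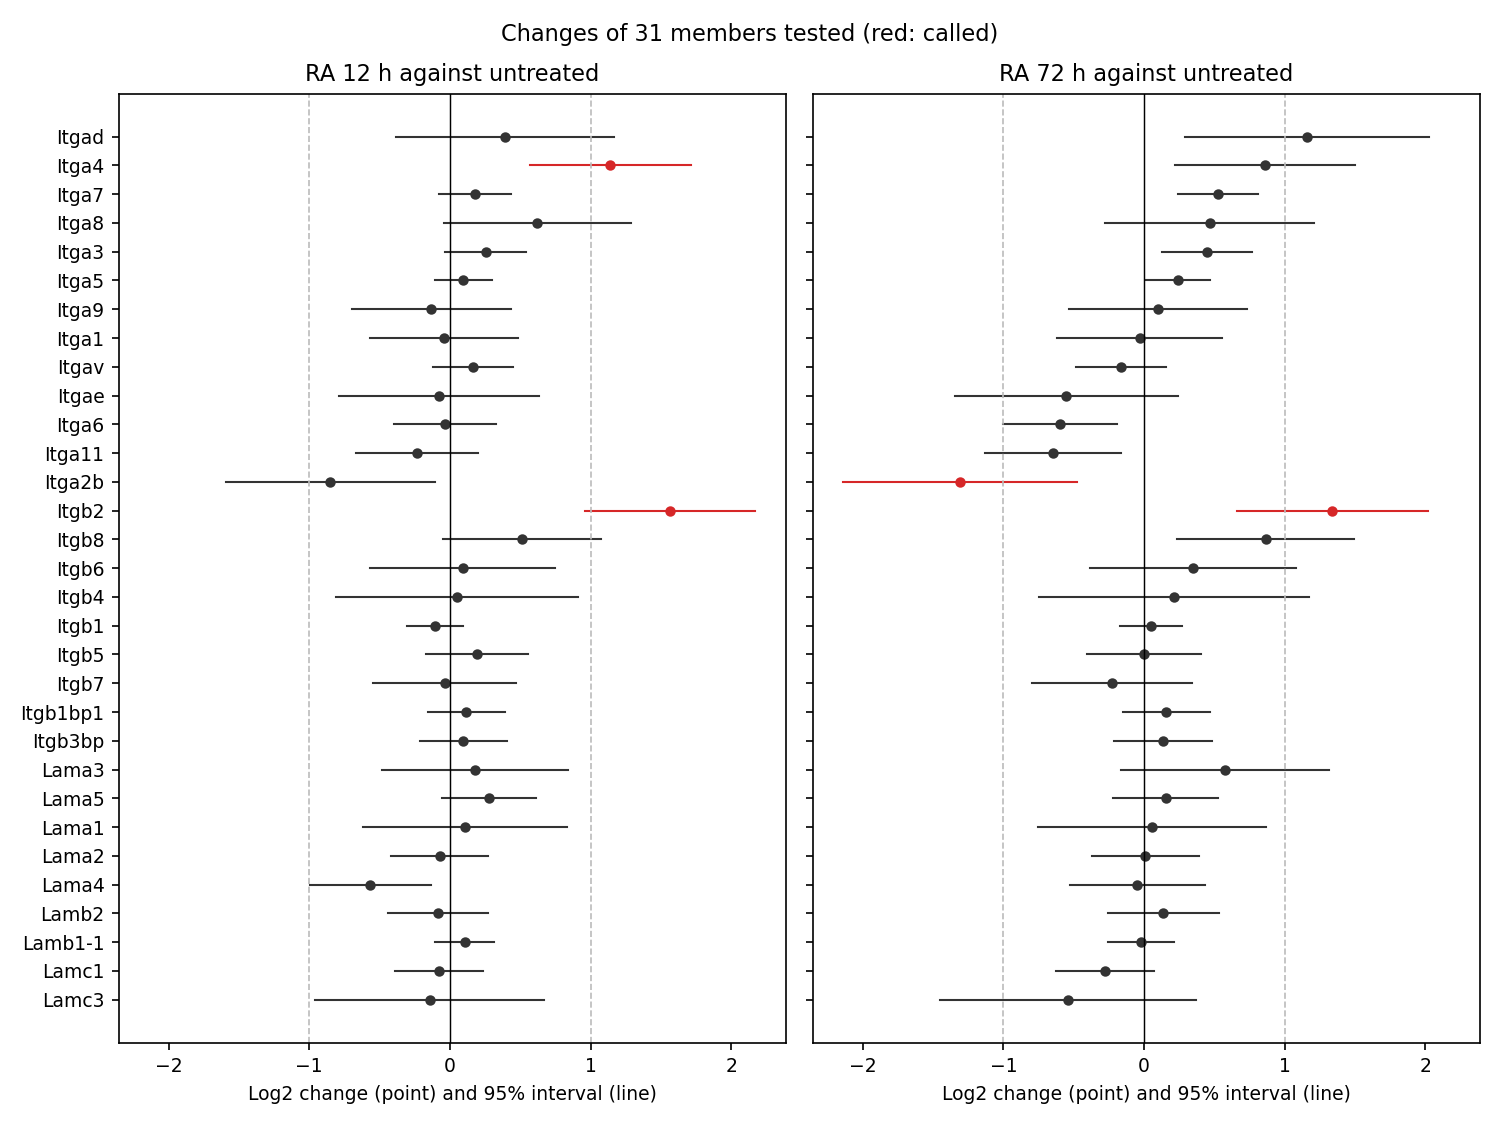
Log2 change of 31 tested members in RA 12 h (left) and RA 72 h (right) against untreated libraries, with 95% intervals from limma. Called members are red, and dashed lines mark a 2-fold change. Most intervals lie inside the dashed lines, and the low-level genes have the widest.

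Unadjusted p was at most 0.05 for 10 of 32 members at 72 h, against 23.9% of all genes, and all 10 were integrin subunits. At 72 h, 8 members lay wholly above the untreated values (17.2% of all genes did) and 5 wholly below (19.4%). These shares are near those of all genes.

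The third comparison asked whether cells at 72 h of RA differed from those at 12 h. With limma 0 of 32 members were called, against 1.5% of all genes (190 of 12673; 0.765% higher and 0.734% lower), and 0 passed the adjusted p without a fold minimum, against 5.84%. Unadjusted p was at most 0.05 for 4 members (Itga6, Itga7, Itgav and Lama4), against 18.9% of all genes. The values at 72 h lay wholly above those at 12 h for 7 members and wholly below for 4, against 18.1% and 19.2% of all genes. The 95% interval lay inside a 2-fold change for 25 of 32.

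The members can be followed by what they bind. The laminin receptors pair alpha3, alpha6 or alpha7 with beta1, and alpha6 also with beta4, which anchors hemidesmosomes in epithelia. Itga3 had means of 583, 690 and 795 in untreated, RA 12 h and RA 72 h cells, with all 72 h values above the untreated ones and a change of 0.45 ± 0.15 (SE, log2, adjusted p = 0.0752). The separation was narrow: RA 72 h 1 read 692.75 and untreated 2 read 692. RA 72 h 1 also lay within the RA 12 h range of 660 to 732.875. Itga6 had means of 119, 114 and 76.7, and its 72 h values of 77.375 and 76 lay under all others, with a change of -0.60 ± 0.19 (adjusted p = 0.0591). Among the laminin-binding alpha subunits, then, Itga3 and Itga7 had higher and Itga6 lower 72 h means, and only Itga7 passed the adjusted p. Itgb1 differed between groups by at most 0.15 on the log2 scale, and Itgb4 had means of 11.4 to 12.8.

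Collagen is bound by alpha1, alpha2, alpha10 and alpha11, each with beta1. Itga11, the fibrillar collagen receptor of fibroblasts, read 37.75, 43 and 36.75 in untreated cells, 33, 34 and 32.25 at 12 h and 23.5 and 25.75 at 72 h. The 3 groups did not overlap. The change at 72 h was -0.65 ± 0.22 (adjusted p = 0.0897) and was not called, although subtracting the gene-body background made it a call (-1.44, adjusted p = 0.0356, in a range of 0.0141 to 0.368 over its alternatives). Itga1 stayed at 26.2 to 27.1 in the group means, with 61.7% of its untreated value within reach of the gene-body background, and Itga2 and Itga10 were not tested.

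Receptors for RGD-containing ligands use alpha5, alphaV, alpha8 and alphaIIb. Itga5 had means of 1756 ± 82.3, 1878 ± 136 and 2074 ± 24.9 (SD), with a change of 0.24 ± 0.10 at 72 h (SE, adjusted p = 0.181). Itgav had means of 195, 219 and 173. Of its beta partners, Itgb5 read 4704 to 7987 in untreated, 6688 to 7572 in RA 12 h and 5280 to 7023 in RA 72 h libraries. Its group ranges overlapped and its 95% interval at 72 h, from -0.41 to 0.40, excluded a 2-fold change.

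Itgb8, whose product with alphaV activates latent TGF-beta, read 26.75, 31 and 39.5 in untreated cells, 39.625, 50.875 and 48.5 at 12 h and 83.75 and 41.75 at 72 h. All 5 RA values lay above the untreated ones. The change was 0.51 ± 0.26 at 12 h and 0.87 ± 0.29 at 72 h (adjusted p = 0.357 and 0.0792). The 2 libraries at 72 h differed by more than any pair of untreated ones: without RA 72 h 1 the change was 0.37, and without RA 72 h 2 it was 1.36 and would have been called (adjusted p = 0.0184, in a range of 0.0109 to 0.65 over its alternatives). Itgb6 had means of 17.2 to 21.3, and Itga8 of 15.75 to 24.3, where the gene-body background could account for the whole untreated value.

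Of the subunits known mainly from blood cells, Itgae (alphaE) had means of 20.5, 19.75 and 13.3 and Itgb7 of 37.3, 37.0 and 31.8, and neither was called. Itga9, a relative of alpha4, had means of 57.2, 52.2 and 62.6. None of the subunits with the highest levels per kb was called, and both called rises were in genes with group means between 9.50 and 33.8.

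The laminin chains did not pass the threshold in any comparison: 0 of the 10 tested were called. Without a fold minimum 0 passed the adjusted p. Of all genes, 1.42%, 3.67% and 1.5% were called at 12 h, at 72 h and between the times. Without the fold minimum 4.37%, 11.5% and 5.84% passed. For 10 chains, 0 called is near the shares of all genes. Their 95% intervals lay inside a 2-fold change for 10 of 10 at 12 h, 8 of 10 at 72 h and 7 of 10 between 72 h and 12 h. Unadjusted p was at most 0.05 for 1 at 12 h (Lama4), 0 at 72 h and 1 between the times (Lama4). Of all genes, 16.3%, 23.9% and 18.9% had such a p.

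Lama5, the alpha chain of most adult basement membranes, had means of 2805 ± 701, 3327 ± 97.0 and 3060 ± 343 (SD). Lamb2 had means of 3950, 3652 and 4265, and Lamb1-1 of 2073, 2230 and 2042. Lamc1, the gamma chain shared by most laminins, had means of 498.5, 471 and 410, with a change of -0.28 ± 0.16 at 72 h (SE, adjusted p = 0.332). In each of these 4 chains the untreated range overlapped the 72 h range.

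Lama4, the alpha chain of vessel laminins that mesenchymal cells also make, read 43.5, 55.5 and 43.125 in untreated cells, 34.375, 30.125 and 30 at 12 h and 42.125 and 49.125 at 72 h. All RA 12 h values lay below all others. The change at 12 h was -0.57 ± 0.20 (SE, log2 scale) and that from 12 h to 72 h 0.52 ± 0.22, neither called (adjusted p = 0.156 and 0.223). Lama2, the muscle laminin chain, had means of 150, 142 and 151, of which 49.2% in untreated cells was within reach of the gene-body background. For Lama3 and Lama1 that background could account for all of the untreated value. Lamc3 had means of 11.75, 10.5 and 8.25.

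The genes named for beta-tail binding proteins did not change past the threshold. Itgb1bp1 (ICAP1, which holds beta1 inactive) had means of 328, 357 and 366. Itgb3bp, whose product is also a centromere protein, had means of 89.3, 95.5 and 98.25, and shares 398 exon bases with Pgm2 on the opposite strand.

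Genes of the matrix and adhesion pathways were taken from 6 lists, of which 97 genes were tested, including the member Itgb1bp1. Among 18 basement membrane partners, 1 rose and 1 fell at 12 h (1.11% of all genes rose and 0.308% fell), and 2 rose and 0 fell at 72 h (2.15% and 1.52%). Nid1, the nidogen that binds laminin gamma1, rose by 1.30 ± 0.14 at 72 h (SE, log2, adjusted p = 4.36e-05), from a mean of 2774 to 6823, while Lamc1 did not rise. Ntn4, a netrin that disrupts laminin polymers, rose by 1.21 ± 0.15 at 12 h and 1.88 ± 0.17 at 72 h (adjusted p = 2.90e-04 and 1.20e-05). Smoc1 fell by 1.24 on the log2 scale at 12 h (adjusted p = 3.83e-04).

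Among 16 integrin ligands other than laminins, 0 were called at 12 h, against 1.42% of all genes, and 1 rose and 4 fell at 72 h, against 2.15% and 1.52%. Without the fold minimum 5 of 16 passed the adjusted p at 12 h, against 4.37% of all genes. Thbs1 and Spp1 had the lowest p there. Thbs1 had means of 45889 in untreated and 24929 in RA 12 h libraries, and Spp1 of 5524 and 10803. Thbs1, Postn, Col3a1 and Tgfbi fell by 2.69, 1.47, 1.43 and 1.41 on the log2 scale at 72 h, and all 4 are secreted ligands of alphaV, beta1 or collagen-binding integrins. Tnc, the tenascin bound by alpha9 and alphaV integrins, rose by 1.07 ± 0.13 (adjusted p = 1.07e-04). From 12 h to 72 h, 0 rose and 5 fell, against 0.765% and 0.734% of all genes, and besides those 4 the fifth was Spp1 (osteopontin). The median change of this list at 72 h was -0.29, beside -0.02 for all genes, whereas Fn1, the ligand of alpha5beta1, changed by -0.08 ± 0.13.

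Among 32 integrin activators and focal adhesion proteins, 1 was called: Tns1, a tensin that links beta tails to actin, rose by 1.60 ± 0.18 at 72 h (SE, log2, adjusted p = 5.78e-05). Of all genes, 1.42%, 3.67% and 1.5% were called at 12 h, at 72 h and between the times. More of the list moved by less than 2-fold. Without the fold minimum 6, 6 and 4 of the 32 passed the adjusted p, against 4.37%, 11.5% and 5.84% of all genes. Of 13 tetraspanins and other lateral partners, 1 was called: Cd9 fell by 1.21 from 12 h to 72 h (adjusted p = 0.0014). Without the fold minimum 1, 4 and 1 of the 13 passed the adjusted p at 12 h, at 72 h and between the times. Of 9 non-integrin laminin receptors and 9 inhibitors or traffic proteins, 0 were called in any comparison, beside the same shares of all genes. In the first of these lists the lowest p at 72 h belonged to Sdc4 (0.42 ± 0.14, adjusted p = 0.0681) and Sgcd (-0.32 ± 0.11, adjusted p = 0.094). In the second, Kank1 (0.58 ± 0.17) passed the adjusted p at 0.0374 without reaching 2-fold, and Tgfb1i1 changed by -0.21 ± 0.17.

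Promoters were examined because RAR binds paired copies of a 6-base core. RefSeq promoter sequences (GRCm38.p6) matched 27 of the 42 members, among them Itga4 and Itga2b but not Itgb2. The core AGGTCA, its variant AGTTCA, the variant GGGTCA and the variant GGTTCA were sought on both strands in the 250 bases before each start, and direct repeats of them with spacers of 1, 2 or 5 bases. At least 1 core lay in 10 of 30 member windows (33.3%), against 38.6% of 32851 windows, and 0 member windows held a direct repeat, against 0.164%, 0.174% and 0.0883% of all windows for the 3 spacers. The windows of Itga4 and Itga2b, called members, and of Itgb5, the highest member and chosen for printing after its values were seen, are shown 5′ to 3′ with any core in capitals. Itgb5 held GGGTCA 126 bases before its start, while Itga4 and Itga2b held none of these letters. They lie at chr2:79255176-79255425 (Itga4, plus strand), chr11:102469884-102470133 (Itga2b, minus strand) and chr16:33829415-33829664 (Itgb5, plus strand).
Itga4: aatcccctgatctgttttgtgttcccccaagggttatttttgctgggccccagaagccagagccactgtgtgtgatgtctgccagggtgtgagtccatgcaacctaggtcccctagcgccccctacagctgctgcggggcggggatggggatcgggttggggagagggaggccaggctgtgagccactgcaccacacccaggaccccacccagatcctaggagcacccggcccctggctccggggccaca
Itga2b: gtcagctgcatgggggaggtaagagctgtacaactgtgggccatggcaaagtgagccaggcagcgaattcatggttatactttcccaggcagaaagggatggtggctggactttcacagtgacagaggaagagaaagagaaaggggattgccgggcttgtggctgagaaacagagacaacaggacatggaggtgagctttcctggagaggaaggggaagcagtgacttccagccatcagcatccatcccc
Itgb5: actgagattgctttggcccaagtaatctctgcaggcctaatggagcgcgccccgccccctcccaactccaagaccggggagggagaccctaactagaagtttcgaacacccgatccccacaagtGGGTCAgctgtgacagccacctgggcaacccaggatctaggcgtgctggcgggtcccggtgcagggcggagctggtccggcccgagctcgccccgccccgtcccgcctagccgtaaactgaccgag

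The spread between replicates set what could be seen. The median within-group SD on the log2 scale was 0.38 for the 16 tested members with a mean from 10 to 50, 0.17 for the 9 from 50 to 500 and 0.19 for the 7 at 500 and above, beside 0.36, 0.17 and 0.14 for all genes of these levels. The 3 called members were all in the first class.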

How the data were processed

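RNA of 8 libraries was sequenced. Labels describe short tags after DpnII and MmeI digestion, whereas the study's methods describe fragmented RNA and longer reads; both cannot hold. Per the methods, the authors aligned reads to mm9 (NCBI37) with Tophat, summed reads per Ensembl gene with Cufflinks and normalised with DESeq. The authors deposited normalised reads per gene, with decimal commas; sorted columns were identical in all libraries and 100% of values below 1000 were multiples of 0.125, so they are not counts and depth was lost. Scaling each library by a single factor, as in DESeq, would not make sorted columns identical, so the normalisation of the deposited values is not known. A line naming no gene (1 of the table) was dropped. The authors' averages and log2 ratios were not used.

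Because values were not counts, DESeq was replaced by limma 3.58.1 (R 4.3.3) with a variance trend on log2(value + 1), in 1 fit of 3 groups (5 residual degrees of freedom), over 12673 genes with a mean of at least 10. P-values were adjusted by Benjamini-Hochberg within each comparison. Genes were called at an adjusted p below 0.05 and at least 2-fold; the 2-fold minimum follows the methods. Fold changes on this scale understate low genes. In simulated data, 200 of 12673 genes were changed by 2 on the log2 scale. Of these, 185 were recovered for 12 h, 191 for 72 h and 184 between the times, with 2, 3 and 4 false calls. The simulated noise was independent between genes and libraries, whereas the real libraries shared an axis, so recovery in the real data was not measured. Recovery of smaller changes was not tested, and every called member changed by less than 2 on that scale. Exon lengths and spans came from GENCODE vM1 on NCBIM37, which held 21465 identifiers (96.7%).

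The symbol alone decided which genes were members, but the topic and the lists were chosen with earlier results of these data known. Full values were given for called members, group values for those passing only the adjusted p and for the highest chains, and from each list the called genes or the 2 with the lowest p at 72 h; other values were chosen after they were seen. Alternatives were another pseudocount, filter, threshold or fit, the replicate block, the shared axis, background subtraction and leaving out each library. The shared axis was taken from the within-group residuals of the same values, so its fit kept each log2 change and mainly lowered the spread. It gave the lowest adjusted p of Itga4 at 12 h and of Itga2b and Itga7 at 72 h. Dropping the fold minimum or the adjustment of p could not lose a call. Protein sequences were not used here. The values of 1 member are not reported here; it is kept in the counts.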

Additional observations from a re-analysis of the deposited data

How the results depend on the processing

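Against 2 members called at 12 h, 1 was called with a pseudocount of 10, without the filter on low values or with the gene-body background subtracted (Itgb2 each time), and 0 with a minimum mean of 50 or a 3-fold minimum. Against 2 at 72 h, 1 was called without the filter, and 0 with a pseudocount of 10, a minimum mean of 50, the 2 groups fitted alone or a 3-fold minimum. A minimum mean of 50 leaves out all 3 called genes; the cause of the other changes was not tested. Leaving out 1 library gave 1 to 2 members at 12 h and 1 to 5 at 72 h, with 5 without untreated 3 and, without RA 72 h 2, Itgb8 alone. Between 72 h and 12 h, 0 members were called under every alternative run. By longest transcript in place of exons, Lama5 took 89.9%, Lamb2 65.4% and Itga5 58.7% of their families. Settings for the pathway lists were chosen after seeing the data: without a fold minimum 16, 25 and 16 genes were called at 12 h, at 72 h and between them, against 2, 8 and 6, and with a 3-fold minimum 0, 3 and 1. Leaving out a library gave 2 to 5, 7 to 9 and 5 to 7. Over single members, 1740 of 1773 values kept their side of the threshold, 25 lost and 8 gained a call, 69 values without a call changed sign, and 0 called values reversed. Most of these values had no call to lose, so the total does not measure how stable the calls were. Of 18 alternatives each, the Itgb2 call was kept in 17 at 12 h and 14 at 72 h. The calls of Itga4 at 12 h and Itga2b at 72 h were kept in 8 each.

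Whether replicate numbers pair the libraries could not be settled: of 7 same-numbered pairs, 2 correlated above 0.1 (range -0.47 to 0.42). The correlations used values centred within each group, so the 2 RA 72 h libraries mirror each other. The shared axis also enters every correlation. With the replicate block, 1 member was called at 12 h (Itga4 had an adjusted p of 0.063 by limma), 2 at 72 h and 0 between the times. Depth was unknown, so it sets no stated limit on the low genes.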
